A study of Bos taurus with 13 samples.

Results

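The BCL2 family genes that set the threshold for cell death at the mitochondrion were examined in whole blood RNA of dairy cows at the high and low ends of milk cortisol. The genes were chosen by name, as 10 well known members of the family, and 7 of these have an entry of their own among the 16095 named genes of the counts: *BCL2*, *BCL2L1*, *BAX*, *BAK1*, *BCL2L11*, *BID* and *BAD*. *BCL2A1*, *MCL1* and *BBC3* are not analysed here. All 7 counted members passed the filter on low counts, as did 11033 named genes in all.

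Blood was sequenced from 13 lactating, clinically healthy cows, 7 in the high cortisol group (replicates 1 to 7) and 6 in the low cortisol group (replicates 8 to 13). The labels give the breed as Italian Red Pied and name no treatment, so both groups are untreated cows that differ by their rank for cortisol in milk. The age of the cows and the cortisol value of a single cow are not given in the sources used here. Blood was drawn into PAXgene tubes, which lyse the cells and stabilise RNA at sampling, and haemoglobin RNA was not depleted, so each value is a mean over red cell precursors, neutrophils, lymphocytes, monocytes and platelets.

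Apoptosis through the mitochondrion is decided by proteins that bind each other through shared BCL2 homology domains. Guardians such as BCL2 and BCL2L1 (BCL-xL) hold the effectors BAX and BAK1 in check, and the BH3-only proteins BCL2L11 (BIM), BID and BAD neutralise the guardians or, for BCL2L11 and BID, also activate the effectors. Freed effectors open pores in the outer mitochondrial membrane, cytochrome c escapes, and caspases follow. In blood the balance sets the life span of short-lived neutrophils and of lymphocytes, and glucocorticoids are known to kill lymphocytes partly through BCL2L11 while they prolong the survival of neutrophils.

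Each cow had from 11045599 to 28124575 counts in named genes. The unit of level is CPM, the count of a gene scaled to a common library size, and 3 counts, the most that a count of 0 allows for, stood for 0.107 to 0.272 CPM, with counting error alone considered. The library of high replicate 4 stood apart from the other 12. Its score on the first principal component of log2 CPM, which held 29.0% of the variance, was 62.4, against -31.3 to 19.1 in the other cows, and it was the highest or the lowest cow for 51.9% of all tested genes. Its depth of 14298265 counts was within the range of the others. Where this cow bears on a fold change or on a correlation between members, the value without it is given too.

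In the UMD3.1 gene models of the files the members lie on different chromosomes, and no other named gene and no exon of an unnamed gene overlaps any of them. *BCL2* is at chr24:61914152-62105526 on the minus strand, with 2 exons of 792 bases in all. *BCL2L1* is at chr13:61766806-61817383 on the minus strand, and its 3 exons of 2544 bases are the longest model of the members. The effector *BAX* is at chr18:55985202-55989378 on the plus strand, with 6 exons of 747 bases, and the effector *BAK1* is at chr23:7655892-7658885 on the minus strand, with 5 exons of 636 bases. Of the BH3-only genes, all on the minus strand, *BCL2L11* is at chr11:1156954-1199792 with 5 exons of 881 bases, *BID* at chr5:109639251-109656755 with 7 exons of 1225 bases, and *BAD* at chr29:43190201-43201983 with 4 exons of 938 bases. The median exon length of the tested genes was 2029 bases, so 6 of the 7 models are short, and reads from transcript ends outside these exons were not counted.

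Levels per length were compared first, as RPKM (CPM after TMM scaling, divided by the exon length in kilobases), to ask which of the counted members dominate in blood. Among these the effectors were the most abundant per length. *BAK1* averaged 117 ± 23.9 RPKM (SD, n = 13 cows) and *BAX* 99.9 ± 17.8. Next came the BH3-only genes *BID*, at 65.3 ± 12.3 RPKM, and *BAD*, at 63.1 ± 12.0. The guardian *BCL2L1* had 24.3 ± 4.87 RPKM. *BCL2L11* followed at 12.7 ± 3.58 RPKM, and *BCL2* was the lowest member at 2.58 ± 2.18 RPKM, with a range from 0.882 to 9.51. Both counted guardians were thus below both effectors in RNA per length in the means over cows. The guardians *BCL2A1* and *MCL1* are not analysed here and have no place in this order.

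Neighbours in this order were compared within cows by an exact two-sided sign-flip permutation test of log2 RPKM, with Benjamini-Hochberg adjustment over the 6 neighbour pairs. *BAK1* exceeded *BAX* 1.17-fold and in 12 of 13 cows (adjusted p = 0.00176). *BAX* exceeded *BID* 1.53-fold, *BAD* exceeded *BCL2L1* 2.60-fold, *BCL2L1* exceeded *BCL2L11* 1.93-fold and *BCL2L11* exceeded *BCL2* 5.38-fold, each in 13 of 13 cows (exact permutation adjusted p = 3.7e-04 for each, from a raw p of 2.4e-04, the smallest that 13 cows allow). *BID* and *BAD* were not told apart: the difference of log2 RPKM was 0.052 ± 0.18 (SD, n = 13), *BID* was the higher in 7 of 13 cows, and the exact permutation p was 0.305. The steps of this order depend on the exon lengths of the models, which are the same for every cow.

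**Figure D1:**
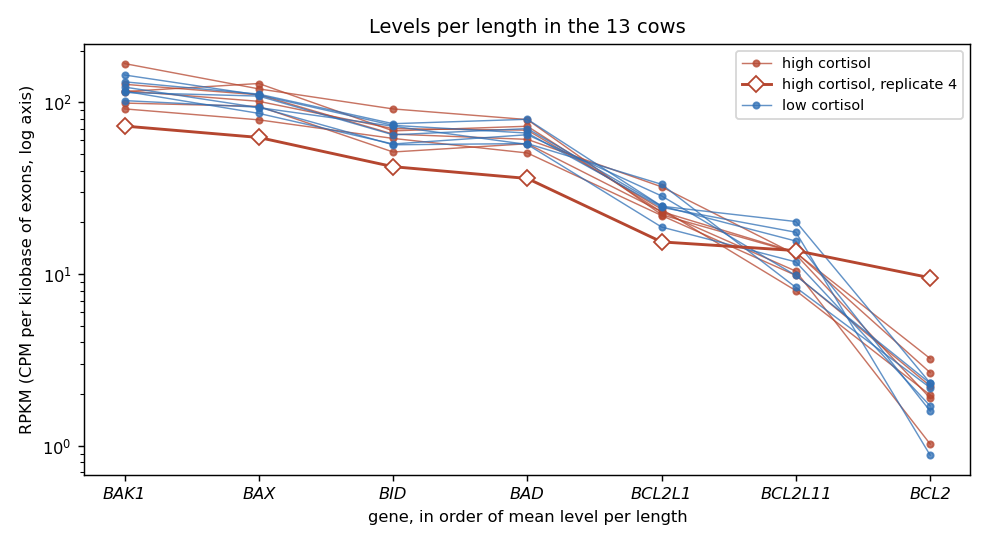
Level per length (RPKM, log axis) of the 7 counted BCL2 family genes in order of their mean, with 1 line for each of the 13 cows, red for high and blue for low cortisol, and open diamonds for high replicate 4. The lines fall from *BAK1* (mean 117 RPKM) to *BCL2* (mean 2.58 RPKM), and high replicate 4 lies below all other cows from *BAK1* to *BCL2L1* and above all others at *BCL2*.

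The main comparison asked whether the members differ between cows of high and low milk cortisol. None of the 7 was called by edgeR's quasi-likelihood test, with a Benjamini-Hochberg adjusted p of 0.999 for each, where 0.0% of the 11033 tested genes were called. None of the 7 had an unadjusted p below 0.05 either, against 2.09% of all tested genes (0.934% higher and 1.16% lower in the high group). DESeq2 and limma-voom likewise called no member, where they called 0.00697% and 0.0% of the genes each tested, and gave none at an unadjusted p below 0.05, against 2.43% and 1.98%. The high and low groups overlapped for every member, and 0.0272% of all tested genes had groups that did not overlap. The fold changes were negative, towards lower levels in the high group, for 6 of 7 members, with a median log2 fold change of -0.11, while 46.7% of all tested genes were negative and their median was 0.013. Without high replicate 4 the values of *BAX* and *BID* were positive.

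Among the guardians, *BCL2*, the founding member of the family, had the largest fold change and the widest spread. The high group ranged from 0.811 to 7.53 CPM with a median of 1.77, and the low group from 0.698 to 1.84 CPM with a median of 1.54. The value of 7.53 CPM was that of high replicate 4, the next cow of the high group had 2.55, and 5 of 7 high cows were above the low median. The log2 fold change was 0.79 (SE 0.44, 95% interval -0.13 to 1.72), with an edgeR unadjusted p of 0.0889 and p = 0.263 in an exact two-sided permutation test of mean log2 CPM. Without high replicate 4 it was 0.23 (SE 0.31, exact permutation p = 0.463). *BCL2* had an edgeR unadjusted p below 0.05 in only 1 of the fits that leave out a cow, that without high replicate 2, its lowest cow in the high group, where 3.4% of the tested genes did.

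Counts of *BCL2* were low, 11 to 118 per cow, so that counting alone would give a coefficient of variation of 20.02%, as the root mean square over the cows. The observed coefficient of variation over the 13 cows was 84.3%, and 32.6% without high replicate 4. As unscaled CPM, the high replicate 4 library held 8.25 (95% Wilson interval 6.89 to 9.88), clear of high replicate 5 with 2.49 (1.93 to 3.21) and of low replicate 10, the lowest cow, with 0.661 (0.369 to 1.18). The high value of that cow is therefore beyond counting error. The biological coefficient of variation that edgeR fitted for *BCL2* was 0.517, at the 96.4th percentile of tested genes, whose median was 0.221.

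*BCL2L1*, which encodes BCL-xL, a survival factor of platelets and erythroid cells, ranged from 39.1 to 81.9 CPM in the high group (median 58.5) and from 47.8 to 84.7 in the low group (median 63.2). Only 1 of 7 high cows was above the low median. Its log2 fold change was -0.16 (SE 0.15, 95% interval -0.48 to 0.16, edgeR unadjusted p = 0.304, exact permutation p = 0.341), and -0.082 (SE 0.14) without high replicate 4.

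The effectors had close medians in the 2 groups. *BAX* ranged from 46.6 to 96.0 CPM in the high group (median 75.6) and from 64.4 to 83.3 in the low group (median 75.5). *BAK1* ranged from 46.2 to 107 CPM in the high group (median 73.4) and from 65.0 to 91.7 in the low group (median 75.8). For both genes the high group held the lowest and the highest cow. The lowest was high replicate 4, and the SD was larger in the high than in the low group, 17.2 against 8.12 CPM for *BAX* and 19.3 against 9.31 for *BAK1*. The log2 fold change of *BAX* was -0.016 (SE 0.15, 95% interval -0.32 to 0.29) and that of *BAK1* -0.11 (SE 0.16, 95% interval -0.44 to 0.22), with edgeR unadjusted p of 0.916 and 0.501 and exact permutation p of 0.801 and 0.429. Without high replicate 4 they were 0.071 (SE 0.12) and -0.024 (SE 0.13). Whether the spreads differ was not tested.

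Of the BH3-only genes, *BCL2L11*, the member best known from glucocorticoid killing of lymphocytes, ranged from 7.05 to 12.1 CPM in the high group (median 11.4) and from 7.36 to 17.8 in the low group (median 12.0). Just 1 of 7 high cows was above the low median, but 3 low cows lay inside the range of the high group. Its log2 fold change was -0.25 (SE 0.21, 95% interval -0.70 to 0.19, edgeR unadjusted p = 0.244, exact permutation p = 0.374), -0.30 without high replicate 4 and -0.0032 with the log2 haemoglobin share as a covariate. With that covariate *BCL2* had 0.59, *BCL2L1* -0.12, *BAX* 0.087, *BAK1* -0.12, *BID* -0.077 and *BAD* -0.12. *BCL2L11* was the one member for which high replicate 4 was neither the highest nor the lowest cow.

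*BID*, which links death receptors to the mitochondrion once a caspase has cut it, ranged from 51.6 to 112 CPM in the high group (median 79.9) and from 69.3 to 91.9 in the low group (median 84.0). *BAD*, whose binding to BCL-xL is switched off by growth factor signals, ranged from 33.8 to 74.4 CPM in the high group (median 57.1) and from 53.3 to 74.7 in the low group (median 61.4). Both genes had their lowest cow in high replicate 4, and the groups overlapped. Their log2 fold changes were -0.048 (SE 0.15, 95% interval -0.36 to 0.27) for *BID* and -0.11 (SE 0.15, 95% interval -0.44 to 0.21) for *BAD*, with edgeR unadjusted p of 0.749 and 0.466 and exact permutation p of 0.652 and 0.451. Without high replicate 4 they were 0.032 (SE 0.13) and -0.021 (SE 0.12). None of the 7 members had an exact p below 0.05, where 2.05% of tested genes had an exact p below 0.05.

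**Figure D2:**
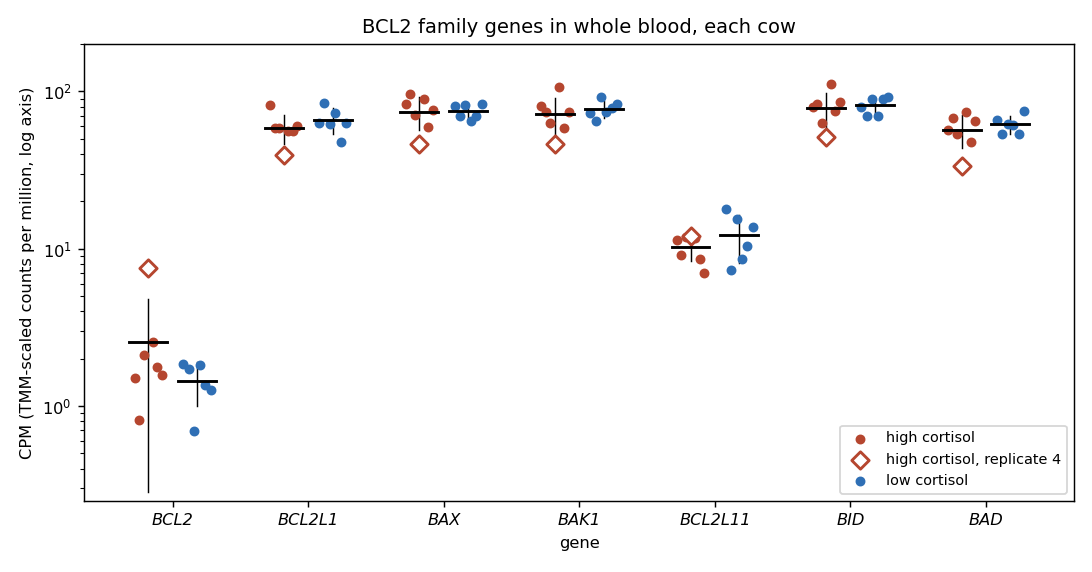
CPM after TMM scaling (log axis) of the 7 counted members in each cow, red for 7 high and blue for 6 low cortisol cows, with open diamonds for high replicate 4, horizontal lines for group means and vertical lines for ± 1 SD. The groups overlap for every gene, and high replicate 4 is at 7.53 CPM for *BCL2* and the lowest cow for *BCL2L1*, *BAX*, *BAK1*, *BID* and *BAD*.

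The intervals set what these cows can show. For the 6 members other than *BCL2* the 95% intervals lie between -0.70 and 0.29 on the log2 scale, while for *BCL2* a log2 difference as large as 1.72 remains inside the interval. In bulk blood, fewer cells of a type and less RNA per cell cannot be told apart. Of 10 marker and response lists compared between the groups, the erythroid list had the smallest exact permutation p of its score, 0.0192 unadjusted and 0.192 after Benjamini-Hochberg adjustment over the lists. Of its 11 genes 10 were counted and 7 tested, none of those counted was at 0 in all cows, and its summed level was 421 to 7868 CPM in the high group and 159 to 598 in the low group. The r of its score with the members was between -0.42 (*BCL2L11*) and 0.23 (*BCL2*, rho 0.51) over 13 cows. For *BID* and *BAK1* it was 0.072 and 0.020 over 13 cows, and -0.62 and -0.54 without the 2 cows farthest from the median of the score. Without those cows the other members had r between -0.31 (*BAD*) and 0.30 (*BCL2*). Within the 6 low cows *BID* had r = -0.92 and *BAK1* -0.61, while within the 7 high cows they had 0.37 and 0.33. *BCL2L1* had 0.67 within the low cows and -0.034 within the high cows. Values of like size in the 6 low cows were not particular to this list. With the monocyte list *BID* had -0.87 and *BAK1* -0.80 there. The values within groups were not tested. *BCL2* had r = 0.40 with the log2 haemoglobin share (permutation p = 0.176, adjusted 0.663) and rho = 0.61 (unadjusted permutation p of rho = 0.0295). The part of erythroid RNA in the levels of the members was not tested beyond these values. The glucocorticoid response list, 10 of 10 genes tested, had a mean score of 0.018 in the high and -0.020 in the low group (exact permutation p = 0.765).

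The ratio of *BAX* to *BCL2*, used as a summary of the effector and guardian balance, was 6.56 to 126 per length in the high group (median 37.1) and 37.3 to 125 in the low group (median 50.7). Its lowest value was high replicate 4, the cow with the highest *BCL2* and the lowest *BAX*. Since *BCL2* had few counts, the ratio carries its counting error. The ratio of the more abundant guardian *BCL2L1* to *BAX* was narrower, from 0.179 to 0.291 in the high group (median 0.244) and from 0.202 to 0.356 in the low group (median 0.226).

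The members did not vary independently from cow to cow. *BAX*, *BAK1*, *BID* and *BAD* varied together: the 6 pairs among them had Pearson's r of log2 CPM from 0.78 to 0.91 and Spearman's rho from 0.65 to 0.90 over 13 cows, and by Pearson's r all 6 passed Benjamini-Hochberg adjustment over the 21 pairs of members (permutation adjusted p from 4.2e-04 to 0.00745). By Spearman's rho 2 of the 6 passed, *BAK1* with *BID* and *BAX* with *BAD*, and the other 4 had permutation adjusted p from 0.0593 to 0.0651. *BAK1* and *BID* were the closest (r = 0.91, rho = 0.90, permutation p = 2e-05), followed by *BAX* and *BAD* (r = 0.90, rho = 0.85, permutation p = 1.4e-04). Within the groups r was 0.80 to 0.95 in the 7 high cows and 0.41 to 0.84 in the 6 low cows. Without the 2 cows farthest from the median of the first gene of each pair it was 0.53 to 0.74.

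High replicate 4, low in all 4 of these genes, adds to the relation. Without it the 6 pairs had r from 0.60 to 0.85, with unadjusted permutation p from 7.1e-04 to 0.0406, and 2 of 6 passed the adjustment, *BAK1* with *BID* (permutation adjusted p = 0.0149) and *BAX* with *BAD* (0.0273). Positive correlation is common in these data. Of all pairs of tested genes, 8.31% had r of at least 0.6, against 6 of the 21 pairs of members, and without high replicate 4 the figures were 5.75% and 5 of 21.

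*BCL2* ran opposite to these 4 genes over all cows, with r from -0.73 to -0.59 and rho from -0.53 to -0.31. The pair of *BCL2* and *BAX*, with r = -0.73 and rho = -0.44, was the 1 of these that passed the adjustment (permutation p = 0.00943, adjusted 0.0283), and it passed neither without high replicate 2 (r = -0.68) nor without high replicate 4. Without high replicate 4 the r of *BCL2* with the 4 genes was -0.38 to -0.13, with permutation p from 0.219 to 0.674, and without the 2 farthest cows it was -0.36 to 0.11. The size of r over all cows thus rested on high replicate 4. Within the groups r was -0.79 to -0.49 in the 7 high cows, which hold that cow, and -0.88 (*BAK1*) to -0.15 (*BAD*) in the 6 low cows, which do not. Among all pairs of tested genes 8.03% had r of -0.6 or below, against 2 of the 21 pairs of members (9.52%), which is close to that share. Without high replicate 4 the figures were 5.28% and 0 of 21. The other 11 pairs, those with *BCL2L1* or *BCL2L11*, had r from -0.48 to 0.48, with a smallest permutation p of 0.101, and from -0.40 to 0.42 without high replicate 4.

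**Figure D3:**
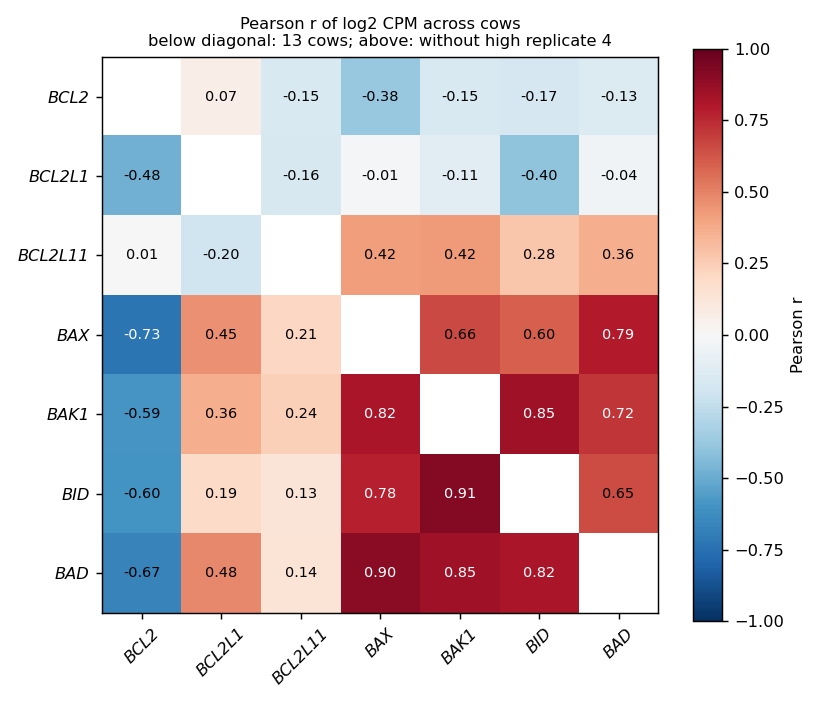
Pearson's r of log2 CPM for each pair of members, over 13 cows below the diagonal and without high replicate 4 above it, coloured from blue (negative) to red (positive). The block of *BAX*, *BAK1*, *BID* and *BAD* is positive on both sides (0.78 to 0.91 and 0.60 to 0.85), and the negative values of *BCL2* with these genes shrink to -0.38 to -0.13.

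**Figure D4:**
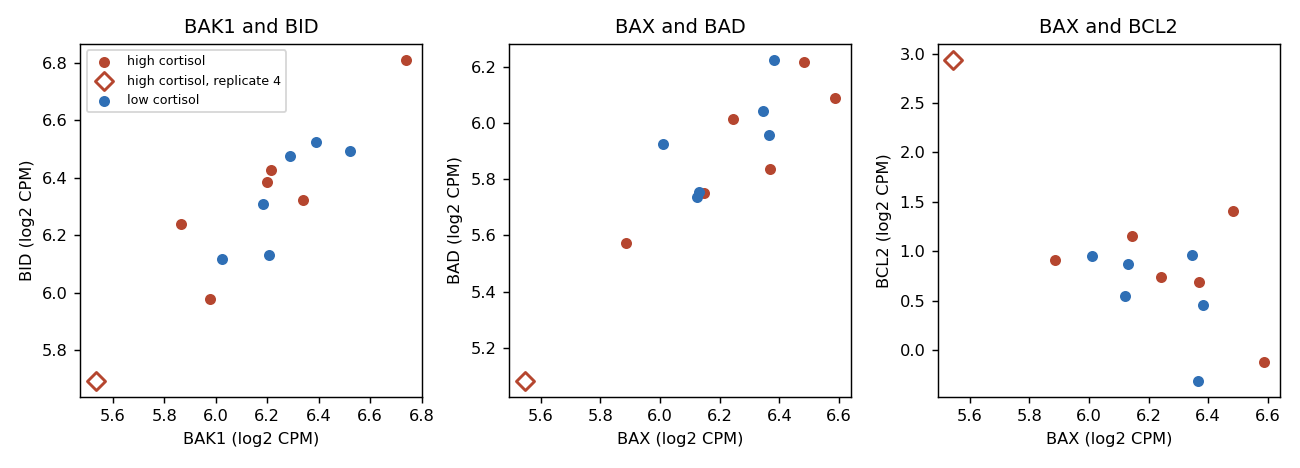
Log2 CPM of *BAK1* and *BID*, *BAX* and *BAD*, and *BAX* and *BCL2* (x and y axes in log2 CPM), with 1 point for each cow, red for high and blue for low cortisol and an open diamond for high replicate 4. In the first 2 panels the cows of both groups lie along one line with high replicate 4 at its lower end, and in the third that cow lies alone at low *BAX* and high *BCL2*.

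The shared course of *BAX*, *BAK1*, *BID* and *BAD* followed the main axis of variation of the blood transcriptome. Their r with the first principal component score was -0.89, -0.87, -0.89 and -0.92, and it was -0.77, -0.77, -0.81 and -0.81 in the 12 cows other than high replicate 4. These values are a description with no test, since the members are among the genes from which the component was computed. Of all tested genes 21.1% had r of -0.6 or below with it. *BCL2* had r = 0.71 with the score, and 0.26 without high replicate 4, while *BCL2L1* had -0.29, and 0.42 without that cow, and *BCL2L11* -0.31, and -0.63 without it. After the component was taken out of the data, a check added after seeing them, the 6 pairs had r from -0.075 to 0.61 and none passed the adjustment. A fall in r was largely built into this check, given the r of the 4 genes with the score. It is therefore a description too, and no test. Depth did not move with the members in a way that passed a test, with r from -0.067 to 0.54 between log2 named counts and their log2 CPM and a smallest adjusted permutation p of 0.663 over the measures compared. The largest was *BAD*, whose rho with depth was 0.64 (unadjusted permutation p of rho = 0.0211).

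Marker lists of 8 blood cell types were compared with the members, to ask which cells move with them. None of the 56 combinations passed adjustment, the smallest permutation adjusted p being 0.650, and 2 had an unadjusted p below 0.05. Both involved the B cell list, all 8 genes of which were tested, with a summed level of 1810 to 3811 CPM in the high and 1875 to 3364 in the low group. *BID* had r = 0.67 and rho = 0.62 with it (permutation p = 0.0116), and r = 0.47 without the 2 cows farthest from the median of the score. *BAK1* had r = 0.58 (permutation p = 0.0373), and 0.40 without those cows. Of all tested genes outside the list 10.1% reached an absolute r of 0.6 with the B cell score. The part of cell makeup in the spread of the members was not tested beyond these correlations.

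The genes most like each member were taken as the 3 of highest Pearson's r of log2 CPM over the 13 cows among all tested genes. *BAX* was closest to *CHMP1A* (r = 0.98), an ESCRT-III subunit, *KXD1* (0.97) and *BTBD2* (0.97). *BAD* was closest to *HAUS7* (0.97), *CLPP* (0.97), the protease of the mitochondrial matrix, and *TMEM259* (0.96). *BID* was closest to *NDUFA8* (0.97), a subunit of respiratory complex I, *C8orf82* (0.96) and *FARSA* (0.95), a subunit of phenylalanyl-tRNA synthetase. These 3 members had 117, 87 and 69 genes with r of at least 0.9, so their nearest genes were drawn from a wide group of genes of like pattern.

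*BAK1*, with 58 such genes, was closest to *MOB3C* (r = 0.97), *PSME1* (0.95), which encodes a proteasome activator subunit, and the mitochondrial carrier *SLC25A39* (0.95). *BCL2* had 11 and was closest to *ZNF445* (0.95), *ZNF507* (0.93) and *IKZF1* (0.93), the lymphoid factor Ikaros, which without high replicate 4 had r of 0.87, 0.79 and 0.79. *BCL2L1* and *BCL2L11* had none at 0.9. *BCL2L1* was closest to *SMOX* (0.87), spermine oxidase, *MAPRE2* (0.86) and *PSRC1* (0.85), and *BCL2L11* to *GIPR* (0.83), *TRAFD1* (0.82) and *AGO2* (0.81), the slicing Argonaute.

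The rest of the pathway was read from 5 lists with 54 genes, of which 44 were counted and 42 tested. None of the 42 was called, and 1 had an unadjusted p below 0.05, higher in the high group, against 0.934% of all tested genes in that direction. Fold changes were positive for 21 and negative for 21, with a median log2 fold change of -0.0049. The list medians were -0.072 for other BCL2 family genes (7 of 13 tested), -0.021 for the apoptosome and caspases (12 of 15), 0.19 for inhibitor of apoptosis proteins (5 of 5), -0.13 for death receptors and adaptors (8 of 9) and 0.030 for regulators of the family (10 of 12). *BCL2L14* and *HRK* had at most 8 counts in any cow and were not tested.

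The 1 gene was *XIAP*, the direct inhibitor of effector caspases, at chrX:7830563-7845821. It ranged from 3.00 to 21.3 CPM in the high group (median 4.93) and from 1.80 to 4.73 in the low group (median 4.09). As with *BCL2*, the highest value was high replicate 4, and the next high cow had 6.94 CPM. *XIAP* had a log2 fold change of 0.94 (SE 0.41, edgeR unadjusted p = 0.0345, exact permutation p = 0.0927) and, without that cow, 0.37 (SE 0.25) with an unadjusted p above 0.05. Then *BOK*, an effector-like family member, was the 1 gene at an unadjusted edgeR p below 0.05, where 0.882% of all tested genes were in that direction, with a log2 fold change of 0.59 (SE 0.28). With all cows *BOK* had 0.46 (SE 0.31, edgeR unadjusted p = 0.156, exact permutation p = 0.186).

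Of the other genes with the smallest p in their lists, *BCL2L2*, which encodes the guardian BCL-w, ranged from 3.89 to 6.45 CPM in the high group (median 5.20) and within 4.14 to 4.44 in the low group (median 4.35), with 6 of 7 high cows above the low median. Its log2 fold change was 0.27 (SE 0.16, edgeR unadjusted p = 0.118), and the exact permutation p was 0.0355, where 2.05% of tested genes had an exact p below 0.05. *BCL2L2* was named for the smallest edgeR p of its list in the same cows. Its exact p is therefore not separate support, and that share is over genes not chosen in this way. With the haemoglobin share as a covariate its log2 fold change was 0.027. The death receptor gene *FAS* had a log2 fold change of -0.32 (SE 0.16, exact permutation p = 0.117) and its ligand *FASLG* 0.27 (SE 0.16, exact permutation p = 0.0822). With the haemoglobin share as a covariate *FAS* had -0.12, and with the difference of neutrophil and T cell scores as a covariate -0.11, where *FASLG* had 0.17. *DIABLO*, which relieves caspases from inhibitor proteins, had 0.17 (SE 0.10, exact permutation p = 0.0717). None of these passed the adjusted threshold.

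*BIRC5*, which encodes survivin, had a log2 fold change of -0.33 (SE 0.26, exact permutation p = 0.348), *YWHAZ*, a 14-3-3 protein that holds phosphorylated BAD, 0.12 (SE 0.098, p = 0.202), and *MDM2*, the ubiquitin ligase of p53, 0.30 (SE 0.26, p = 0.463). Without high replicate 4 *YWHAZ* had 0.049 and *MDM2* 0.019, and with the haemoglobin share as a covariate *BIRC5* had -0.16 and *MDM2* 0.15. The covariates did not shrink every value. With the difference of neutrophil and T cell scores *BIRC5* had -0.48. With the haemoglobin share *XIAP* had 0.78, *BOK* 0.45, *FASLG* 0.25, *DIABLO* 0.19 and *YWHAZ* 0.10. Of the 42 genes, high replicate 4 was the highest cow for 12 and the lowest for 7, against 27.4% and 24.5% of all tested genes. Of the 7 members it was the highest for 1 and the lowest for 5.

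**Figure D5:**
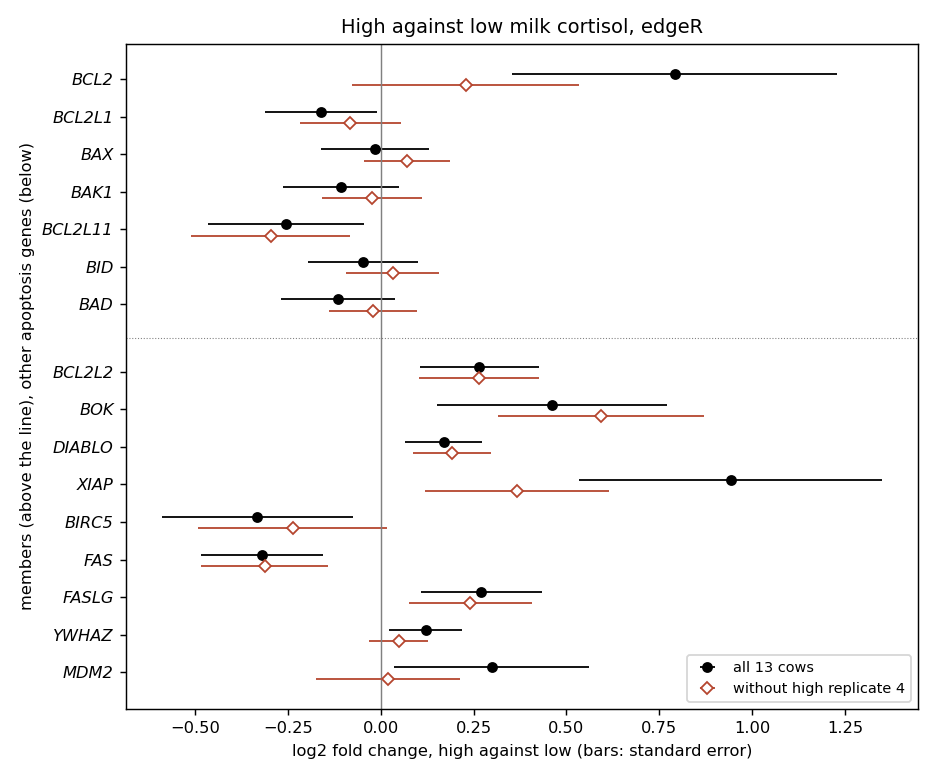
Log2 fold change of high against low cortisol (x axis, bars ± 1 SE) from edgeR for the 7 members, above the dotted line, and 9 other apoptosis genes, below it, with all 13 cows (black) and without high replicate 4 (open red). *BCL2* moves from 0.79 to 0.23 and *XIAP* from 0.94 to 0.37 when that cow is left out.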

How the data were processed

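Whole blood RNA of 13 cows was sequenced. The authors deposited counts, whole numbers of reads on each gene name without normalization. Per the file headers they come from featureCounts 1.4.6-p3 with exons summed by gene name of Ensembl release 88 (UMD3.1) and no option for strand, pairs or multiple mapping, and the header paths carry a folder named for goat and an animal number other than that of the table. The submitters' processing notes name STAR 2.7.3, Subread 1.6.5 and ARS-UCD1.2. Positions are UMD3.1 as in the files. Genes without a name share 1 entry (13.9% to 16.7% of counts), which was left out. Groups come from the labels.

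Counts were scaled by TMM and taken to CPM and, with a prior count of 2, to log2 CPM. Groups were compared with edgeR 4.0.16 (R 4.3.3, quasi-likelihood, robust, filterByExpr with minimum count 10 and minimum total 15, Benjamini-Hochberg over all tested genes). Standard errors are the absolute log2 fold change over the square root of F. Alternatives were DESeq2 1.42.0, limma-voom 3.58.1, other scalings and filters, covariates and each cow left out. Exact tests ran over 1716 splits of the cows, sign flips over 8192, and correlations used 100000 permutations. A list score is the mean, over the tested genes of a list, of the deviation in log2 CPM from the mean of the gene. Scripts were tested on simulated data. No pair of libraries held identical counts.

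The members and lists were chosen with earlier results of these data known. Named genes are all members, every gene of the 5 apoptosis lists at an unadjusted edgeR p below 0.05, the 2 of smallest p in each list, and the 3 genes nearest each member, of which 1 item is not reported here. The value of *BOK* without high replicate 4 was singled out after it was seen.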

Additional observations from a re-analysis of the deposited data

Results flagged for a closer look

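In 5 cases a single cow stood far from the rest of its group, among 72 comparisons of the highest or lowest cow in 36 groups of 6 or 7 cows. Independent comparisons would give about 1.8 by chance. These comparisons share the same cows, and some of the genes were named for a small p in these data, so that number is not a test. *BCL2* was at 7.53 CPM in high replicate 4, with the next high cow at 2.55. *XIAP* was at 21.3 CPM in the same cow, with the next at 6.94. *MDM2* was at 65.1 CPM there against 36.0 in the next cow, and *YWHAZ* at 163 CPM against 122. The ratio of *BAX* to *BCL2* per length was 125 in low replicate 10, with the next low cow at 70.0, and *BCL2* in that cow rested on 11 counts. A ratio of 126 was also seen in high replicate 2. The 4 cases in high replicate 4 concern the cow that stood apart on the first principal component, and the cause was not tested.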

How the results depend on the processing

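Over 28 settings, 779 of 821 values under an alternative kept their direction and their side of the threshold on the adjusted p (the exact p for exact tests) or, for a count, stayed within 1.5 times it. The unadjusted edgeR p of single genes was not part of this tally. With an adjusted p of 0.999 in the main fit, fold changes had little room to cross the threshold. For them the tally was mostly one of direction and says little about size. *BCL2*, with 0.79 in the main fit and 0.23 without high replicate 4, was counted as kept. No member was called in any setting. At an unadjusted p below 0.05 the number of members was 0, and 0 to 1 with 1 cow left out (1 without high replicate 2, *BCL2*). The number of the other apoptosis genes at that level was 1, and 0 with limma-voom and 0 with the haemoglobin share as a covariate, and 1 to 4 with 1 cow left out (4 without high replicate 2, 2 without low replicate 13). The log2 fold change of *BAX* turned positive with the haemoglobin share (0.087) or the difference of neutrophil and T cell scores (0.052) as a covariate, and was -0.082 to 0.071 with 1 cow left out. That of *BID* was -0.15 to 0.032. The differences of mean log2 CPM were -0.11 to 0.060 for *BAX* and -0.17 to 0.019 for *BID*. Pairs of members at an adjusted p of 0.05 numbered 7, with Spearman's rho 2, with 1 cow left out 2 to 10 (2 without high replicate 4, 10 without high replicate 5), and 0 with the first principal component removed, which was chosen after seeing the data and turned *BAX* with *BID* (-0.075) and *BID* with *BAD* (-0.034) negative. A fall in r was largely built into that removal, since the 4 genes follow the component. The causes were not tested. The order of levels per length kept all 7 places and 5 neighbour pairs past the threshold. No paired analysis was possible because the groups hold different cows and the labels pair none of them. Depth limits *BCL2* most, with 11 to 118 counts per cow.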

Other observations

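Correlations of the members with 2 response lists were computed after seeing the data. None of the 14 relations passed Benjamini-Hochberg adjustment (smallest permutation adjusted p = 0.214). With the interferon response score, over 13 cows, *BCL2L11* had r = 0.61 and rho = 0.46 (permutation p = 0.0282) and *BID* r = 0.59 and rho = 0.59 (permutation p = 0.0306), and 12.7% of all tested genes outside the list reached an absolute r of 0.6. Without the 2 cows farthest from the median of the score the values were 0.42 for *BCL2L11* and 0.60 for *BID*. With the monocyte score, *BAK1* had rho = -0.75 with r = -0.50 and *BID* rho = -0.70 with r = -0.54. The permutation p of rho adjusted over the 56 combinations with cell lists was 0.256 for each. Of all tested genes outside the list 9.75% reached an absolute Pearson's r of 0.6, which neither member did, and that share does not apply to rho.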
